A study of Mus musculus with 10 samples.

Results

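The 8 genes described here encode structural proteins of the myelin sheath: Mbp, Mobp, Cnp, Ermn, Mag, Mog, Cldn11 and Mal. They were chosen by name, and every non-control probe that the array files assign to one of these symbols was taken, which gave 15 probes. All 15 were well above background on all 10 arrays and entered the test. They are 8 of 20066 genes, and 15 of 30978 probes, with a measurable signal. Mbp and Mobp had 3 probes each, Mog, Mag and Mal had 2 each, and the 3 genes Cnp, Cldn11 and Ermn had 1 each.

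Hippocampal RNA of 10 adult mice of the outbred ICR stock was read on 1-colour Agilent arrays, 1 array per sample. In the high estradiol group (HE, n = 5) the dams had been dosed by mouth with estradiol valerate, which is cleaved to estradiol in the body, at 100 µg/kg/day between E5.5 and E11.5 of gestation. In the control group (NC, n = 5) the dams had received the corn oil vehicle. All offspring were labelled male, the labels name no engineered allele, and the samples were labelled as separate replicates without a litter, so the p-values reflect the spread among these samples and not among litters. Exposure was of the dam and ended before birth, while RNA was taken in adulthood.

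Levels below are log2 signals relative to the 75th percentile of each array. A level of 0 is thus that percentile itself, and percentages of the NC signal are given beside the log2 differences. That percentile ran from 1140.5 to 1277.0 signal units on HE arrays and from 898.0 to 1185.9 on NC arrays, and the share of probes well above background was 70.27% to 78.85%. Precision is limited by the 5 arrays per group. Array slides and groups overlapped only in part: slide 1 held NC 1 to NC 4, slide 2 held HE 1, HE 2 and NC 5, and slide 3 held HE 3 to HE 5. Xist, the RNA of the inactive X chromosome, went against the male label on 7 of the 10 arrays: its level was 3.21 to 3.51 on HE 1 to HE 3 and 3.76 to 4.45 on NC 1 to NC 4, against -7.25 on HE 4, -4.96 on HE 5 and -4.51 on NC 5. Values within slide 2 and within the arrays of high Xist are therefore given beside the main comparison. Tissue markers also differed between the groups and are given after the member genes.

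Myelin is the stack of membrane that oligodendrocytes wrap around axons in the brain. Its compact part is held together by basic proteins on the cytoplasmic side, while adhesion molecules line the axonal and outer surfaces and claudin strands seal the edges. In the adult hippocampus, myelinated axons run mainly in the alveus, the fimbria and the perforant path. Transcription of these genes in mature oligodendrocytes is driven in large part by SOX10 and MYRF.

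Promoter sequence was looked at because the members moved together across arrays, with start sites from RefSeq (GRCm38.p6) for 7 of the 8 genes. Mbp was left out of this search. In the 250 bases before the first listed start, the core letters bound by SOX factors (ACAAAG or ACAATG) and the core letters reported for MYRF (CTGGCAC or CTGGTAC) were searched on both strands, with no overlap between matches. The sequences with a match are shown 5′ to 3′ on the strand of the gene, with the matched letters in capitals.

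Mobp (chr9:120149492-120149741, plus strand): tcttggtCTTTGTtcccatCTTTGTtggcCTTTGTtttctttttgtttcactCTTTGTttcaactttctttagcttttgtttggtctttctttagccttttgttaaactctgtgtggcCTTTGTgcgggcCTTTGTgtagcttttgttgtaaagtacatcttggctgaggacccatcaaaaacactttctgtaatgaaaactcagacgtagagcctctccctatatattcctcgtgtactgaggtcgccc

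Cnp (chr11:100574689-100574938, plus strand): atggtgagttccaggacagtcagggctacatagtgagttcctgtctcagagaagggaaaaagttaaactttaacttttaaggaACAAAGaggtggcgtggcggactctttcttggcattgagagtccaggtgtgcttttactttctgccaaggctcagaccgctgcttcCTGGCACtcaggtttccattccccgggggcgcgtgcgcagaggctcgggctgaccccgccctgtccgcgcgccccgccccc

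Mag (chr7:30914864-30915113, minus strand): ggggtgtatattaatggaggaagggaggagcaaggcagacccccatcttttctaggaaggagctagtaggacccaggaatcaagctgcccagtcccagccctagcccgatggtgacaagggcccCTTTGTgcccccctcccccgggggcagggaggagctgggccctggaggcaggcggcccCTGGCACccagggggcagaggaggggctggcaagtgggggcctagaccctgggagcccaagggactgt

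Mog (chr17:37023399-37023648, minus strand): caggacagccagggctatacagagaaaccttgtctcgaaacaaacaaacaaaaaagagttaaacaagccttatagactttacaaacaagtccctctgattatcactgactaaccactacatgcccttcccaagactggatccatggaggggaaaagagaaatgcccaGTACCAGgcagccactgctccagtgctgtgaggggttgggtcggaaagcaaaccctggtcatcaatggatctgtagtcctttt

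Ermn (chr2:58052865-58053114, minus strand): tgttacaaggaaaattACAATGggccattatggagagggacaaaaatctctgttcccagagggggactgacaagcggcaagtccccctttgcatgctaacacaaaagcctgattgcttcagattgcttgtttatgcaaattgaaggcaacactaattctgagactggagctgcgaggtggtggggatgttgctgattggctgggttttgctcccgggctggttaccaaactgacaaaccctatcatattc

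The Mobp window held 6 copies of ACAAAG, each on the strand opposite to the gene and so printed as CTTTGT, with first bases at -243, -231, -221, -198, -132 and -120 from the start. It was the 1 window among 32851 RefSeq windows of this length with 6 or more copies (0.00304%), and 16.5% of windows held at least 1. The cutoff of 6 is the count of the Mobp window itself, so that window was bound to be included. The share is a description and was not tested. The windows of Cnp and Mag each held 1 ACAAAG (first base at -167 on the strand of the gene in Cnp, and at -126 on the opposite strand, printed as CTTTGT, in Mag) and, nearer the start, 1 CTGGCAC on the strand of the gene (-81 to -75 in Cnp, -68 to -62 in Mag). CTGGCAC occurred in 4.19% of all windows. Mog held 1 CTGGTAC on the opposite strand (-83 to -77, printed as GTACCAG), found in 1.83% of windows, and Ermn held 1 ACAATG at -234, found in 3512 of 32851. The windows of Cldn11 and Mal held none of these letters, and the full palindromic oestrogen response element, found in 0.0639% of windows, was in none of the 7. A match of letters is a description of the window and not a binding site.

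**Figure D1:**
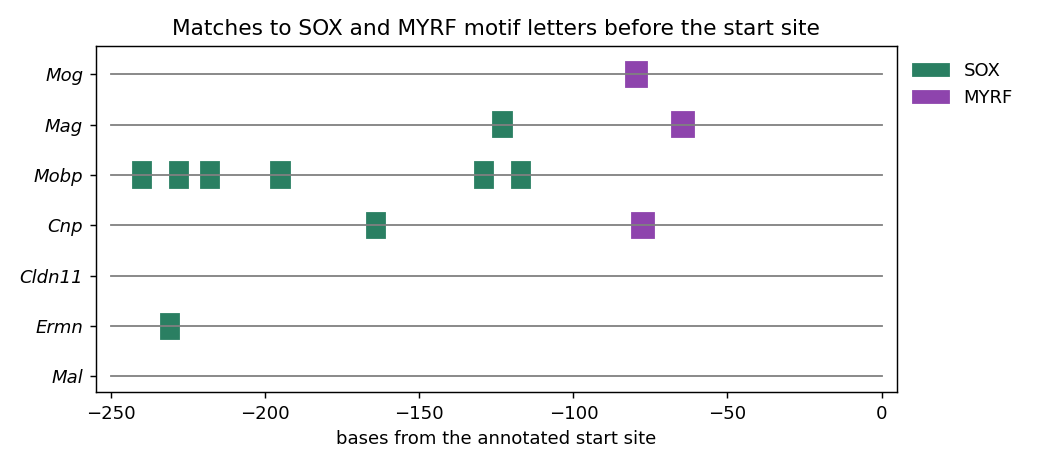
Matches to the SOX letters (ACAAAG or ACAATG) and the MYRF letters (CTGGCAC or CTGGTAC) in the 250 bases before the start site of 7 member genes; the horizontal axis is the distance from the start in bases, and each box is 1 match. Mobp carries 6 SOX matches, Cnp and Mag carry 1 of each kind, and Cldn11 and Mal carry none.

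Most of the member genes were lower in HE hippocampus. With each gene represented by its brightest probe, 6 of the 8 fell at a limma adjusted p under 0.05 (Mbp, Mobp, Cnp, Ermn, Mag and Cldn11) and none rose, while 14.6% of all genes fell and 6.79% rose. The log2 differences (HE minus NC) ran from -1.43 for Ermn to -0.45 for Mog with a median of -0.64, beside a median of -0.06 over all genes. At the level of probes, 10 of the 15 fell, 0 rose and 5 did not pass the test, beside 15.5% of all probes that fell and 23.2% that changed in either direction. Each of the 8 genes had at least 1 probe among the 10. In a bulk sample, fewer oligodendrocytes or myelinated fibres and less RNA per cell cannot be told apart. In the fit with slide as a block, none of the 8 genes passed (0.344% of all genes did), and in the 7 arrays of high Xist only Ermn did (0.329% of all genes did). With slide as a random block 7 of the 8 fell (16.8% of all genes), with quantile normalization 7 (12.4%), with normexp background correction 5 (35.7%), and with normexp centred on the median probe 1 (25.8%).

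**Figure D2:**
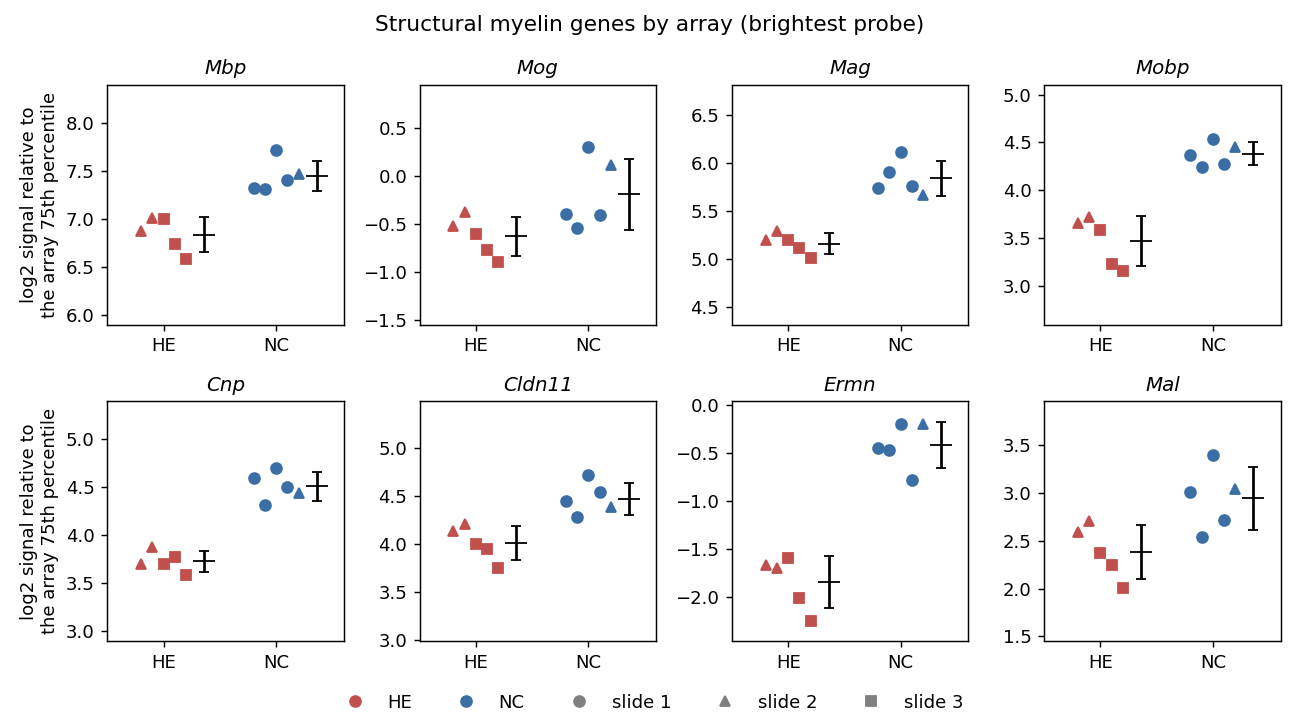
Level of the brightest probe of each member gene on every array (vertical axis, log2 signal relative to the array 75th percentile), HE left of NC; the symbol shape gives the slide, and the bar beside each group is the mean ± SD over 5 arrays. All HE arrays lie below all NC arrays for Mbp, Mobp, Cnp, Ermn, Mag and Cldn11, and the groups overlap for Mog and Mal.

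Mbp encodes myelin basic protein, the cytoplasmic protein that zips the inner membrane faces of compact myelin together. Its brightest probe, A_51_P349205, is printed on 10 spots and lies at chr18:82754755-82754814 (mm9, plus strand). It read 6.88, 7.01, 7.0, 6.74 and 6.58 on HE 1 to HE 5, against 7.33, 7.31, 7.72, 7.41 and 7.47 on NC 1 to NC 5. The groups did not overlap, with a gap of 0.30 between the lowest NC array and the highest HE array. Signal in HE was 65.6% of that in NC (log2 difference -0.61 ± 0.12 SE, limma adjusted p 0.0107, exact permutation p 0.00794, the smallest that 5 against 5 arrays can give). The 6 genes without overlap among the 8 compare with 10.9% of all genes in which every HE array lay below every NC array.

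Mobp, which encodes a second small basic protein of the compact sheath in the central nervous system, was lowered further. Its brightest probe, A_52_P384465 at chr9:120090501-120090560 (mm9, plus strand), read 3.66, 3.72, 3.59, 3.23 and 3.16 on HE 1 to HE 5. On NC 1 to NC 5 it read 4.37, 4.24, 4.54, 4.28 and 4.45. Every HE array lay at least 0.52 below every NC array, and the HE arrays HE 4 and HE 5 were the lowest. The HE mean was 53.4% of the NC mean (log2 difference -0.90 ± 0.13 SE, limma adjusted p 0.00591).

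Cnp encodes the cyclic nucleotide phosphodiesterase that keeps cytoplasmic channels open in the non-compact parts of the sheath. Its single probe, A_51_P232901 at chr11:100442617-100442676 (mm9, plus strand), read 3.70, 3.88, 3.70, 3.77 and 3.59 on HE 1 to HE 5, against 4.6, 4.32, 4.70, 4.50 and 4.44 on NC 1 to NC 5. The SD was 0.11 in HE and 0.15 in NC, and the groups were separated by 0.43. Cnp signal in HE was 57.9% of that in NC (log2 difference -0.79 ± 0.10 SE, limma adjusted p 0.00396).

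Ermn encodes ermin, an actin-binding protein made by oligodendrocytes late in myelination, and it changed most among the 8 by brightest probe. The probe A_51_P202980 at chr2:57900226-57900286 (mm9, minus strand) read -1.67, -1.70, -1.60, -2.01 and -2.25 on HE 1 to HE 5. It read -0.45, -0.47, -0.20, -0.78 and -0.20 on NC 1 to NC 5. The gap between the groups was 0.83, wider than the SD within either group (0.27 in HE and 0.24 in NC). Ermn signal in HE was 37.2% of that in NC (log2 difference -1.43 ± 0.16 SE, limma adjusted p 0.00314), and 2.79% of all genes had a fall as large or larger.

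Mag encodes myelin-associated glycoprotein, an adhesion molecule of the innermost wrap that faces the axon. Its brightest probe, A_51_P435428 at chr7:31684231-31684290 (mm9, minus strand), read 5.2, 5.29, 5.2, 5.11 and 5.01 on HE 1 to HE 5, against 5.74, 5.91, 6.12, 5.76 and 5.67 on NC 1 to NC 5. The groups were 0.38 apart. HE signal was 62.6% of NC signal (log2 difference -0.68 ± 0.11 SE, limma adjusted p 0.00656). The second Mag probe, A_52_P375021, read 1.38 to 1.77 on HE arrays and 1.69 to 2.56 on NC arrays, with overlap at HE 2 and NC 1. It fell by 0.52 ± 0.15 SE on the log2 scale (limma adjusted p 0.0374), a call that held without HE 2, NC 1 or NC 3 but not without any of the other 7 arrays, where the adjusted p was 0.0591 to 0.0805.

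Mog encodes myelin oligodendrocyte glycoprotein, which sits on the outermost surface of the sheath. Its brightest probe, A_52_P85040 at chr17:37157407-37157466 (mm9, minus strand), read -0.52, -0.38, -0.60, -0.77 and -0.90 on HE 1 to HE 5, against -0.40, -0.54, 0.30, -0.41 and 0.12 on NC 1 to NC 5. NC 3 and NC 5 lay above all HE arrays, and the other NC arrays lay among HE 1 to HE 3. The mean was -0.63 ± 0.20 in HE and -0.19 ± 0.37 in NC (SD, n = 5 each), and the log2 difference of -0.45 ± 0.18 SE did not pass the test (limma adjusted p 0.0954).

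Cldn11 encodes claudin 11, which forms the tight junction strands of the sheath. Its probe, A_51_P409452 at chr3:31062922-31062981 (mm9, plus strand), read 4.13, 4.21, 4.0, 3.95 and 3.75 on HE 1 to HE 5, against 4.45, 4.28, 4.72, 4.54 and 4.38 on NC 1 to NC 5. The groups were separated by only 0.07, between HE 2 and NC 2. HE signal was 72.5% of NC signal (log2 difference -0.46 ± 0.12 SE, limma adjusted p 0.0214), and the direction turned to a log2 difference of 0.14 when normexp background correction was followed by centring on the median probe.

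Mal encodes a proteolipid of lipid rafts that takes part in membrane trafficking to the sheath. Its brightest probe, A_51_P499071 at chr2:127458948-127458975 (mm9, minus strand), read 2.59, 2.70, 2.37, 2.24 and 2.01 on HE 1 to HE 5, against 3.01, 2.54, 3.39, 2.71 and 3.04 on NC 1 to NC 5. NC 2 lay below HE 1 and HE 2, so the groups overlapped. The log2 difference was -0.56 ± 0.18 SE and missed the threshold narrowly (limma adjusted p 0.0504), and it passed without HE 2 (adjusted p 0.0449), NC 2 (0.0451) or NC 4 (0.0487). The second Mal probe, A_52_P562661, lies 525 bases away and read 1.78 to 2.39 on HE arrays and 2.33 to 3.12 on NC arrays. It fell by 0.62 ± 0.17 SE on the log2 scale (limma adjusted p 0.0265), and the call was lost without HE 3, HE 4, HE 5 or NC 5 (adjusted p 0.051 to 0.0566).

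Probes of 1 gene did not all give the same answer, and the sequences of those that differed are shown by the first 30 of their 60 bases, 5′ to 3′, as the files give them. None is shown for Mbp.

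Mog A_52_P85040 (chr17:37157407-37157466, mm9, minus strand): ggacgcacagagcttctgaaagagactatc

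Mog A_52_P169614 (chr17:37151531-37151590, mm9, minus strand): cttcacattcaagatctataggaatgtagc

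Mobp A_52_P384465 (chr9:120090501-120090560, mm9, plus strand): cgtcactgagtcgcgttgtaatcaccacgt

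Mobp A_51_P291224 (chr9:120077006-120077065, mm9, plus strand): acccttcaccttcctcaactccaagcgtga

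Mobp A_52_P267600 (chr9:120084777-120084836, mm9, plus strand): atggaaatggggaaaaaggaaacaagagag

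For each of the 5 genes with several probes, the level of each further probe minus that of the brightest probe was compared between HE and NC over arrays, which made 7 pairs. Of these, 4 differed by an exact permutation test with Benjamini-Hochberg adjustment over the 7 pairs: 1 in Mbp, 1 in Mog and both in Mobp. The 2 probes of Mag differed by 0.16 ± 0.09 (SE, adjusted p 0.185) and those of Mal by -0.06 ± 0.03 (adjusted p 0.0889) in their log2 differences between HE and NC. A second Mbp probe, A_52_P329451, differed from the brightest by 0.23 ± 0.15 (adjusted p 0.246). Its own log2 difference was -0.38 ± 0.22 SE (limma adjusted p 0.23), with 3.47 to 3.93 on HE arrays and 3.58 to 4.74 on NC arrays.

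The third Mbp probe went the other way. A_52_P604195, assigned by the files to Mbp transcript variant 8, lies 26826 bases from the brightest probe towards the start of the locus (mm9). It read 3.46, 3.39, 3.40, 2.64 and 2.99 on HE 1 to HE 5, against 3.02, 2.36, 2.62, 2.98 and 2.13 on NC 1 to NC 5. The groups overlapped at HE 4 and HE 5, and the log2 difference of 0.56 ± 0.22 SE did not pass the test over all probes (limma adjusted p 0.089). Relative to the brightest Mbp probe on the same array, every HE array lay above every NC array: the level minus that of the brightest probe was -4.10 to -3.41 in HE and -5.34 to -4.32 in NC, a difference of 1.16 ± 0.23 (SE, exact permutation p 0.00794, adjusted p 0.0185). Averaged over its 3 probes, Mbp had a log2 difference of -0.14 and was not called (limma adjusted p 0.509), so the fall of Mbp rests on the brightest probe.

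In Mog, the dimmer probe fell more than the brightest one. A_52_P169614 carries the accession of a cDNA clone (AK045883) and lies 5876 bases downstream of the brightest probe on the strand of the gene. It read -3.21, -3.21, -4.0, -3.65 and -3.35 on HE 1 to HE 5, against -1.89, -1.38, -1.96, -2.26 and -1.84 on NC 1 to NC 5. Its signal in HE was 32.6% of that in NC with a gap of 0.94 between the groups (log2 difference -1.62 ± 0.19 SE, limma adjusted p 0.00383). The 2 Mog probes differed by -1.17 ± 0.29 (SE, exact permutation p 0.00794, adjusted p 0.0185).

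In Mobp, the brightest probe fell most, and the probe that lies between the other two did not pass the test. A_51_P291224 (accession NM_001039365) read 1.87 to 2.56 on HE arrays and 2.45 to 3.21 on NC arrays and had a log2 difference of -0.61 ± 0.18 SE (limma adjusted p 0.035). That call was lost without any 1 of HE 1, HE 3, HE 4, HE 5, NC 3, NC 4 or NC 5 (adjusted p 0.0527 to 0.0788). A_52_P267600 (accession NM_008614) read 0.87, 1.45, 1.05, 0.91 and 0.86 on HE 1 to HE 5, against 1.54, 1.10, 0.87, 0.84 and 1.41 on NC 1 to NC 5. Its groups overlapped throughout, with a log2 difference of -0.12 ± 0.17 SE (limma adjusted p 0.631). Set against the brightest Mobp probe, the differences were 0.30 ± 0.11 for A_51_P291224 (SE, exact permutation p 0.0159, adjusted p 0.0278) and 0.78 ± 0.18 for A_52_P267600 (SE, exact permutation p 0.00794, adjusted p 0.0185).

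**Figure D3:**
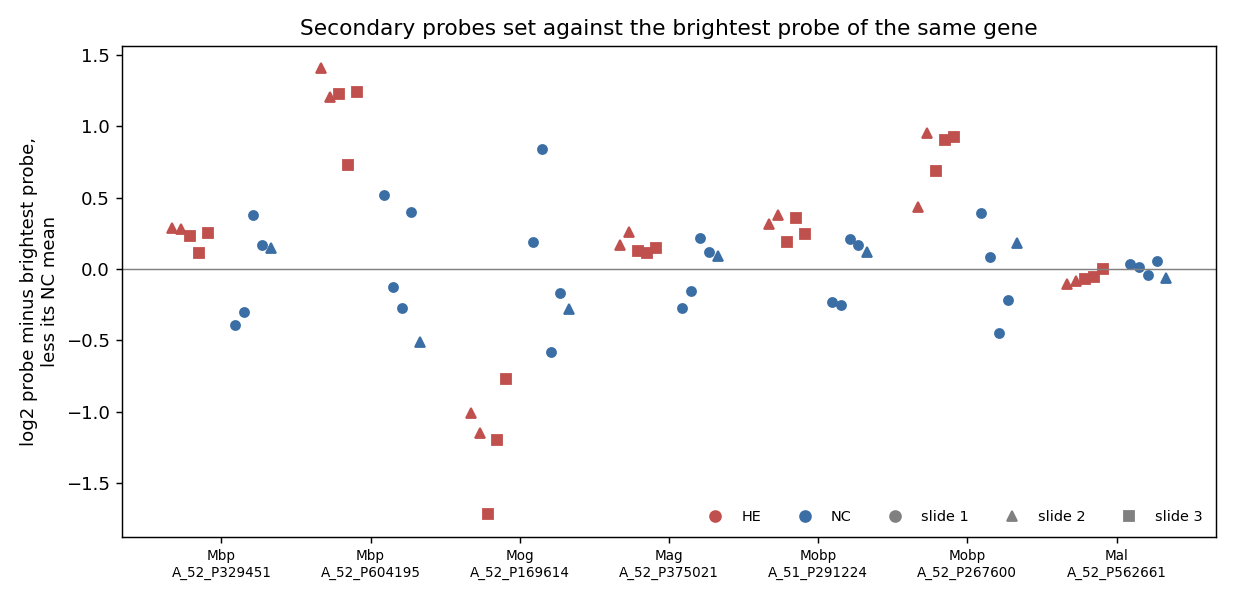
Level of each further probe minus that of the brightest probe of its gene on the same array, less the mean of the NC arrays (vertical axis, log2), for 7 probes; HE stands left of NC within each probe, and shapes give the slide. HE arrays lie apart from NC arrays for Mbp A_52_P604195 and Mobp A_52_P267600 (above) and Mog A_52_P169614 (below), and the groups overlap for the other 4.

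Within slide 2, the only slide with both groups, HE 1 and HE 2 both lay below NC 5 for all 8 genes by brightest probe, as they did for 53.9% of all genes. The mean of HE 1 and HE 2 minus NC 5 was -1.48 for Ermn, -0.77 for Mobp, -0.65 for Cnp, -0.57 for Mog, -0.53 for Mbp, -0.42 for Mag, -0.40 for Mal and -0.21 for Cldn11. These are also the estimates with slide as a block, which rest on 1 NC array. For Ermn the difference on slide 2 was as large as over all arrays, and for Cldn11 it was smaller (-0.21 against -0.46). Between the slides of the HE group, the mean over HE 3 to HE 5 was below the mean over HE 1 and HE 2 for all 15 probes, by 0.17 for the brightest Mbp probe. Within slide 2, the mean of HE 1 and HE 2 at the transcript variant 8 probe of Mbp was 1.30 above NC 5.

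**Figure D4:**
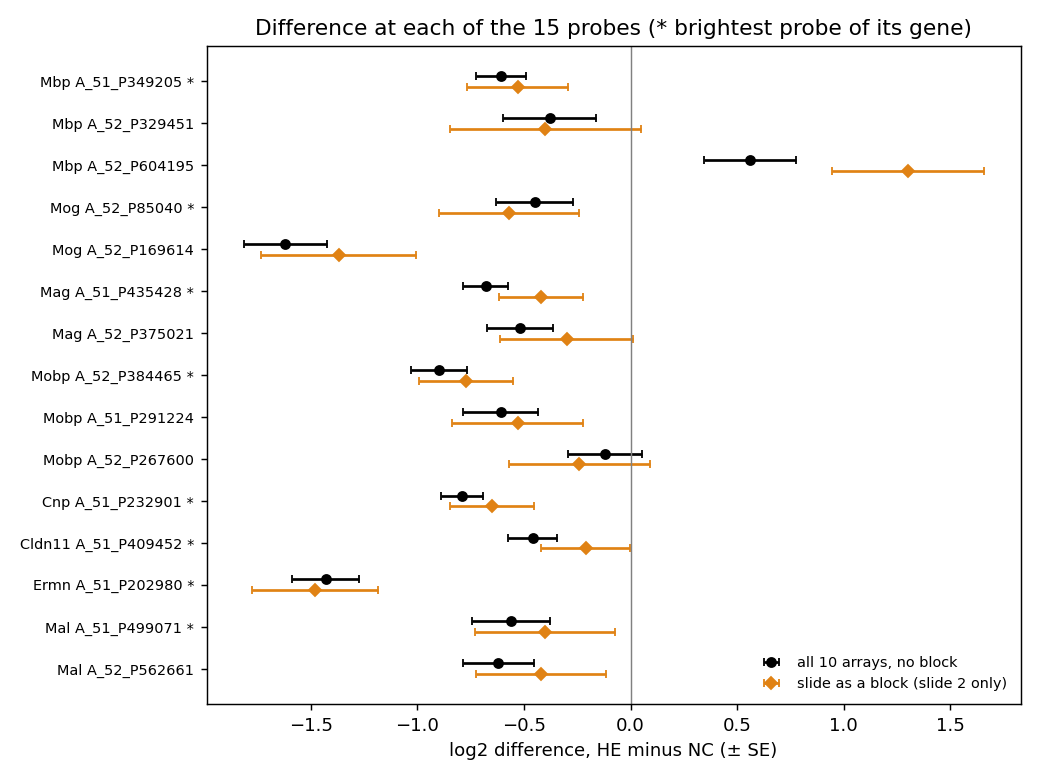
Log2 difference, HE minus NC, with its SE at each of the 15 probes (horizontal axis), over all 10 arrays without a block (circles) and with slide as a block, which uses slide 2 only (diamonds). Of the 15 probes 14 lie left of 0 in both fits, and Mbp A_52_P604195 lies right of 0 in both.

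Among the 7 arrays with high Xist (HE 1 to HE 3 and NC 1 to NC 4), the log2 differences were -1.18 for Ermn (limma adjusted p 0.0435), -0.77 for Cnp, -0.70 for Mobp, -0.65 for Mag, -0.48 for Mbp, -0.38 for Cldn11, -0.36 for Mal and -0.24 for Mog. Among the 3 arrays with low Xist (HE 4, HE 5 and NC 5), they were -1.93 for Ermn, -1.26 for Mobp, -0.95 for Mog, -0.92 for Mal, -0.81 for Mbp, -0.77 for Cnp, -0.60 for Mag and -0.53 for Cldn11, with none passing and 1 NC array behind them. All 8 genes were thus lower in HE in both subsets, and Cnp had the same difference in each. No slide held both groups in either subset. With high Xist, NC 1 to NC 4 were on slide 1 and HE 1 to HE 3 on slides 2 and 3. With low Xist, HE 4 and HE 5 were on slide 3 and NC 5 on slide 2. Group and slide therefore cannot be told apart within these subsets.

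The 8 genes also varied together within the groups. Across the 10 arrays, after the group mean had been subtracted from each gene, Pearson's r between brightest probes was 0.36 (Cnp and Ermn) to 0.90 (Mog and Mal) over the 28 pairs, with a median of 0.76 and 27 pairs above 0.5. These arrays share slides and the scaling to 1 percentile, so the values describe the arrays and were not tested. HE 5 lay lowest in its group (mean deviation -0.27) and HE 2 highest (0.20), while in NC the lowest was NC 2 (-0.18) and the highest NC 3 (0.29). The mean level of the 8 genes was 3.0, 3.09, 2.96, 2.78 and 2.62 on HE 1 to HE 5, against 3.58, 3.45, 3.91, 3.50 and 3.67 on NC 1 to NC 5. No HE array reached the lowest NC array.

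By the same measure over 10 arrays, the genes whose deviations were most like the mean of the members included Hnrnpf (r 0.975), Atp7a (0.946), Coro1b (0.945), Desi1 (0.935) and Ace (0.933). These 5 did not pass the test between HE and NC. Ace, the angiotensin-converting enzyme, had a log2 difference of 0.63 ± 0.22 SE (limma adjusted p 0.0596), and Hnrnpf, an RNA-binding protein of splicing, one of -0.12 ± 0.09 SE (adjusted p 0.355).

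Other genes of the oligodendrocyte were read from lists drawn up with earlier results of these data known, each gene by its brightest probe. Of 30 further genes of the myelin membrane, its junctions and the paranode, 14 fell, 1 rose and 15 did not pass, with a median log2 difference of -0.42. Over all genes, 14.6% fell and 6.79% rose. Hapln2, a link protein of the nodal matrix, fell by 0.83 ± 0.11 SE, Cmtm5, a membrane protein of the sheath, by 0.78 ± 0.12, and Gpr37, a receptor of oligodendrocytes, by 0.75 ± 0.11 (limma adjusted p 0.00477 to 0.00641). Sema4d, a membrane-bound semaphorin, was the 1 gene that rose (0.56 ± 0.08 SE, limma adjusted p 0.00527). With slide as a block 1 of the 30 fell (median -0.35), and in the 7 arrays of high Xist 0 did (median -0.37).

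Of 21 tested genes for the lipid, iron and other metabolic enzymes of oligodendrocytes, 15 fell and 0 rose, with a median log2 difference of -0.67. Beside them, 14.6% of all genes fell and 6.79% rose. Trf, the iron carrier transferrin, fell by 0.93 ± 0.10 SE (limma adjusted p 0.00294), and Elovl1, an elongase of very long chain fatty acids, by 0.81 ± 0.12 (adjusted p 0.00653). The list also holds Adamts4, a matrix-degrading protease, and Ppp1r14a, an inhibitor subunit of a phosphatase, which are no lipid or iron enzymes. Gjc1, Il33 and Gsn, which are no such enzymes either, are among the 15 that fell. Adamts4 fell by 1.43 ± 0.13 SE (limma adjusted p 0.00224) and Ppp1r14a by 1.21 ± 0.16 (adjusted p 0.00457). The mean level of the 21 genes was 1.06 to 1.31 on HE arrays and 1.68 to 2.24 on NC arrays, without overlap, and with slide as a block 0 of the 21 were called at a median of -0.68.

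Regulators of the lineage, active in precursors or in mature cells, and genes of precursors were read in the same way. Of 12 tested regulators of the lineage, 4 fell and 8 did not pass (median log2 difference -0.43), beside 14.6% of all genes that fell. The 4 were Tcf7l2 (-2.62 ± 0.37 SE, limma adjusted p 0.00565), Erbb3 (-0.55 ± 0.12, 0.0154), St18 (-0.84 ± 0.20, 0.0185) and Nkx2-2 (-0.48 ± 0.14, 0.0358). With slide as a block 0 of the 12 fell (median -0.34), and in the 7 arrays of high Xist 1 did (median -0.48). Tcf7l2 is also a marker of thalamic neurons. Sox10 had a log2 difference of -0.43 (limma adjusted p 0.069) and Myrf one of -0.28 (adjusted p 0.462), while Olig1 (0.03) and Olig2 (-0.06) lay near 0. The Myrf probe was the dimmest of the 12, with a mean level of -5.5 in HE and -5.22 in NC. Of 12 genes of oligodendrocyte precursors, 2 fell (Pcdh15 and Lhfpl3) and 10 did not pass, with a median of 0.02. The 2 are 16.7% of the list, near the 14.6% of all genes that fell. Without 1 array, 1 to 3 of the 12 fell. Pdgfra, the receptor that marks precursors, had a log2 difference of 0.04 (limma adjusted p 0.898). The difference between the members and these lists was not tested.

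Lists of markers of other tissues and cells were read next. The 20 markers of thalamic neurons had a median log2 difference of -1.48. Of these, 15 fell and 0 rose, beside 14.6% of all genes that fell and 6.79% that rose. The count was 9 without HE 2, HE 5, NC 3 or NC 5, 3 in the 7 arrays of high Xist (median -1.41), and 0 with slide as a block, where the median was -2.26. Their mean level was -1.03 to 0.48 on HE arrays and 0.22 to 1.5 on NC arrays, and 19 of the 20 were well above background on all arrays. The other, Shox2, was so on 1 HE array and 5 NC arrays. It entered the test through NC alone, and its fall, 1 of the 15, is not read as a result. The summed linear level of the list, in units of the 75th percentile, was 29.6 to 65.3 on HE arrays and 66.5 to 148 on NC arrays. The mean log2 level of the list varied within the groups. HE 4 had the highest thalamic mean of the HE arrays (0.48) and the second lowest member mean (2.78). Fitted with the thalamic mean as a covariate, log2 differences of the members were -1.41 (Ermn), -0.92 (Mobp), -0.70 (Mag), -0.68 (Cnp), -0.53 (Mbp), -0.36 (Cldn11), -0.35 (Mal) and -0.14 (Mog). None of the 8, and 0% of all genes, passed in that fit, in which covariate and group move together. The part of thalamic tissue in the fall of the members was not tested.

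Most of the 10 tested liver markers entered the test through the NC arrays alone, so no count of falls is given for them. Their mean level was -6.85 to -5.0 on HE arrays and -5.69 to -1.37 on NC arrays, with the high values on NC 1, NC 2 and NC 4, and 2 of the 10 were well above background on every array. Without those 3 NC arrays the median of the members was -0.84. Of 14 astrocyte markers, 2 fell (S100b, log2 difference -0.85 ± 0.10 SE, limma adjusted p 0.00393, and Aqp4, -0.89 ± 0.23 SE, adjusted p 0.0243) and 12 did not pass. The 2 are 14.3% of the list, near the 14.6% of all genes that fell. Mean levels of the list were 2.85 to 3.07 on HE arrays and 2.90 to 3.45 on NC arrays. S100b is also made by mature oligodendrocytes.

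Schwann cells make peripheral myelin with several of the same proteins, and their markers were read as a check. The mean level over 9 tested markers was -3.97 to -3.30 on HE arrays and -3.79 to -3.58 on NC arrays. Of the 9, 5 were well above background on every array, 1 fell (Cdh19), 1 rose (Drp2) and 7 did not pass. Cdh19 read well above background on 2 HE arrays and 5 NC arrays. It entered the test through NC alone, so its fall is not read as a result. Egr2, an early growth response factor that neurons also make, averaged 1.10 ± 1.55 in HE and 0.31 ± 1.15 in NC (SD, n = 5 each). Of 16 markers of hippocampal principal neurons, all were well above background on every array, 3 rose (Pou3f1 and Mpped1 among them), 1 fell (Prox1) and 12 did not pass, with a median log2 difference of 0.46. Among 14 pan-neuronal markers 2 fell and 2 rose (median 0.07). Among 13 microglial markers 1 rose and 0 fell (median 0.03). Beside the counts of the Schwann cell, hippocampal, pan-neuronal and microglial lists, 14.6% of all genes fell and 6.79% rose. The labelled tissue was thus marked on all arrays, and the part of these markers in the values of the members was not tested.

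Within the groups, the mean of the members followed the mean of the lipid and iron list (r 0.90, 10 arrays) and of the other myelin list (r 0.80). Its r was 0.22 with the thalamic markers, 0.26 with the astrocyte markers, -0.18 with the precursor genes and -0.49 with the liver markers. These correlations are over arrays that share slides and scaling and are given as a description.

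**Figure D5:**
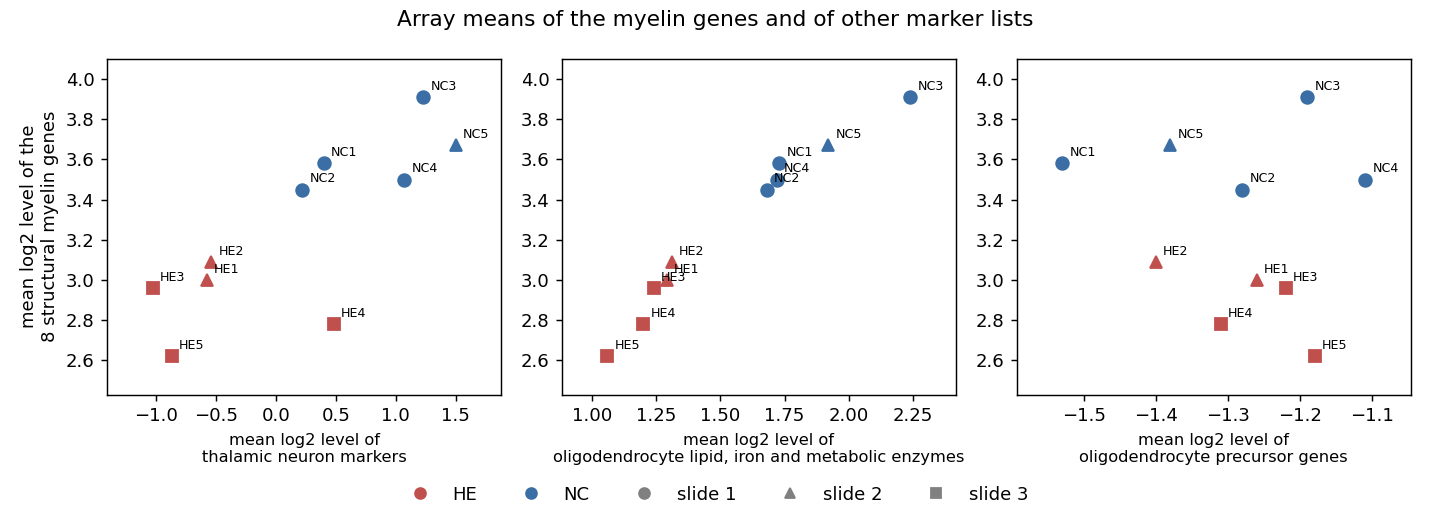
Mean log2 level of the 8 structural myelin genes (vertical axis) against the mean log2 level of the thalamic markers, the lipid, iron and metabolic enzymes and the precursor genes (horizontal axes) on each of 10 arrays; colour gives the group and shape the slide. HE and NC lie apart on both axes for the enzymes, overlap on the horizontal axis for the precursor genes, and HE 4 (0.48) lies among the NC arrays for the thalamic markers.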

How the data were processed

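Amplified RNA was labelled with Cy3, per the labels' protocols. The submitters' processing notes name Agilent Feature Extraction 10.7 for reading the images. The deposited scanner files hold spot intensity on a linear scale that was background-subtracted within each array, per the file headers, and not normalized between arrays. The series value table holds log2 values, deposited without a stated method. Against log2 processed signals their slopes were 0.966 to 1.035 and their column medians 7.0334 to 7.0337, so scale and direction are known, no centring by gene was seen, and the software is not given in the sources used here; they served as an alternative.

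Processed signals were divided by the 75th percentile over the 41174 non-control probes of their array and put on a log2 scale. Outlier spots (68 to 129 per array) were left out, no spot was saturated, and repeated spots were averaged. Probes were tested where at least 3 of the 5 arrays of a group read them as well above background. Genes were read by the entering probe with the highest mean. Probes were named through RefSeq (GRCm38.p6) by accession (27668), symbol (5589) or synonym (471), and 7446 kept the name in the file. Probe positions are those of the files (mm9); exon or UTR annotation of that build was not used here.

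HE and NC were compared by a two-sided moderated test (limma 3.58.1 with R 4.3.3, lmFit followed by eBayes) without covariates, with Benjamini-Hochberg adjustment over all 30978 entering probes and a threshold of 0.05. Single values were compared with two-sided exact permutation tests. The fit was tested on simulated data. Within a group, log2 differences between any 2 arrays had an SD of 0.435 to 0.704, which shows no repeated array. Alternatives were slide as a block (fixed or random), the replicate number as a block, normexp with an offset of 50, other scalings, filters, priors and ways of joining probes, the Xist pattern, the thalamic mean as a covariate, and leaving out arrays.

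The members, the lists and the alternatives were chosen with earlier results of these data known. The text names all probes of the members, in each other list the 4 genes with the smallest p, of which some are given by count, and the 6 genes whose deviations from the group means correlate most with those of the members. Sox10, Myrf, Olig1, Olig2, Pdgfra, Egr2, Shox2, Gjc1, Il33 and Gsn were named in addition after their values were seen. Some items that this rule takes are left out of the text.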

Additional observations from a re-analysis of the deposited data

How the results depend on the processing

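The number of probes called was 7174 (2387 higher, 4787 lower). It was 250 (159 higher, 91 lower) with slide as a fixed block, 14372 (2329 higher, 12043 lower) with normexp, 14543 (5859 higher, 8684 lower) with normexp centred on the median probe, 104 in the 7 arrays of high Xist, 0 in the 3 of low Xist, 1 with the thalamic covariate and 2904 without NC 1, NC 2 and NC 4. Quantile normalization gave 3605 higher and 3842 lower, the deposited log2 values 3613 and 3801, and median scaling 5644 and 2924. Leaving out 1 array gave 3846 (without NC 2) to 7458, with 3979 without HE 1 and 4174 without NC 5. The number of member genes that fell, 6 of 8, was 0 with slide as a fixed block, in the 3 arrays of low Xist and with the thalamic covariate, 1 (Ermn) in the arrays of high Xist and 1 (Ermn) with normexp centred on the median probe. It was 4 with median scaling, and 6 to 7 without 1 array. The median of the members, -0.64, was -0.10 with normexp centred on the median probe, -0.43 with median scaling, -0.86 in the arrays of low Xist and -0.84 without NC 1, NC 2 and NC 4, and -0.68 to -0.57 without 1 array.

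Scalings moved the median of all genes too: it was -0.29 with normexp and 0.16 with median scaling. Relative to it the members lay at -0.58 in the reported fit, -0.18 with normexp and -0.59 with median scaling. Mobp A_52_P267600 turned to 0.05 with normexp, 0.42 with normexp centred on the median probe, 0.09 with median scaling and 0.04 in the arrays of high Xist. With normexp centred on the median probe Cldn11 turned to 0.14, Mbp A_52_P329451 to 0.15 and Mag A_52_P375021 to 0. The cause was not tested. Replicate numbers did not pair the arrays (correlations of -0.0676, -0.0192, 0.153, 0.107 and -0.0394), and with the replicate number as a block 5797 probes and 5 member genes were called. Over 26 alternatives Ermn was called in 23, Cnp, Mag and Mobp in 21, Mbp in 19 and Cldn11 in 17 by brightest probe. Of the 26, 10 left out 1 array each, and these genes were called in all 10. The alternatives are thus not independent of each other. Mbp A_52_P604195 passed as higher in 5 of the 26, among them normexp (0.78, limma adjusted p 0.0172).

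With 1 NC array on the only shared slide, group and slide can be separated only by that array. The labels give no litter, so litter and group cannot be told apart.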
